A study of Mus musculus with 12 samples.

Results

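FoxO proteins are forkhead transcription factors that carry the state of insulin and nutrient signalling to the nucleus. When AKT is active it phosphorylates them, 14-3-3 proteins bind, and the factors are held in the cytoplasm. When AKT activity falls they enter the nucleus and bind short A/T-rich elements in the promoters of genes for growth arrest, protein breakdown, autophagy and stress defence. In the pancreatic β-cell FoxO1 is known for its opposition to Pdx1, the homeobox factor of insulin transcription, and for its role under metabolic stress. Most of this control acts on the proteins, which were not measured here. Transcript levels of 8 genes are described: the factors Foxo1, Foxo3 and Foxo4, and 5 genes that are known as FoxO targets in one tissue or another, Klhl24, Fbxo32, Ccng2, Pink1 and Bcl6. They are 8 of the 49315 genes in the count files, each found by its symbol in 1 row, and all 8 passed the filter on low counts.

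The RNA came from MIN6, a mouse insulinoma line used as a β-cell model, labelled as wild type in all groups, so it is 1 cell line throughout. There were 4 groups with 3 libraries each. Control cells had no treatment beyond their usual medium with serum and glutamine. Starved cells were without amino acids for 16 h, re-added cells got amino acids back for 3 h, and the cells of the last group got amino acids back for 3 h with "Rap", which the labels do not spell out. The labels do not say how long the last groups had been starved before re-addition, what dose of Rap was used, or whether replicates are separate cultures. The p-values therefore rest on library-to-library spread alone, and that spread may be technical.

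Library totals ran from 18555958 to 25631056 counted reads. The 8 β-cell markers checked, among them Ins1, Ins2 and Iapp, were above 0 in all 12 libraries, with sums between 49126 and 74485 CPM (read counts scaled to library size, with TMM factors). These markers did not move together. From control to starved cells mean Slc2a2 went from 9.38 to 1.23 CPM and Pdx1 from 627 to 410 CPM, whereas Chgb went from 6160 to 10676.5 CPM. RNA of other cell types was also present and differed between libraries. The summed level of 20 markers of fibroblasts, leukocytes and endothelium was 1034 to 1279 CPM in the control libraries and 47.6 to 52.7 CPM in the Rap libraries. In between it was 960.5, 65.2 and 483 CPM in starved replicates 1, 2 and 3, and 417, 58.7 and 56.3 CPM in re-added replicates 1, 2 and 3. Of the 20 markers, 1 (Lum) was at 0 in some libraries and none was at 0 in all of them. Lists of lung epithelium and striated muscle genes were likewise highest in control and, within the starved and re-added groups, in replicate 1. In whole-culture RNA, fewer cells of a type and less RNA per cell cannot be told apart. Where the RNA of other cell types came from was not tested, nor whether such cells were in the cultures.

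FoxO factors are known to bind the element GTAAACA, its variant ATAAACA, and the insulin response element CAAAACAA. The RefSeq promoter table (build GRCm38.p6) holds entries for 5 of the 8 genes, Foxo1, Foxo3, Ccng2, Pink1 and Bcl6, with 6 start sites in all. The 250 bases before each start were searched on both strands for these 3 elements, none of which contains another. Only the Ccng2 entry held a match, to CAAAACAA on the gene's own strand, beginning 16 bases before its RefSeq start. The counted Ccng2 gene begins at 93267257, so this window lies inside its span. Among 32526 promoter windows of this length, 3.17% held GTAAACA, 4.14% ATAAACA, 2.23% CAAAACAA and 9.11% any of them. The Ccng2 window is shown for its match, in capitals, and the Pink1 window beside it as a promoter of a gene with a similar order of groups and no match. They are written 5′ to 3′ on the gene's strand.
Ccng2, chr5:93267323-93267572, plus strand: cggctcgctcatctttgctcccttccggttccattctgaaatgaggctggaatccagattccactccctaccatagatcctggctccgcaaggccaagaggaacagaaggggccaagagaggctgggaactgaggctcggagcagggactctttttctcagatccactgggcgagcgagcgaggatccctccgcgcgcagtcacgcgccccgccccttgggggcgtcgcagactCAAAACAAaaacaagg
Pink1, chr4:138326297-138326546, minus strand: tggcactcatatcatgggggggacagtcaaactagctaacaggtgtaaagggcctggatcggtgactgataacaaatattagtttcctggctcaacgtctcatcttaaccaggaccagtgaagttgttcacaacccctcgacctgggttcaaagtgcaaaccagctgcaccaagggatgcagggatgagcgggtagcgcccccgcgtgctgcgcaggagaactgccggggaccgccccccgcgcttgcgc

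A wider list of 45 other genes commonly named as FoxO targets was searched in the same way. Of these, 38 had entries, and 10 of their 49 start sites, 20.4%, held a match. The 8 of these 10 genes that also passed the filter on low counts are shown, with the element in capitals and 12 bases on either side. Mxi1, Bcl2l11, Bbc3 and Selenop also had start sites without a match, which are not shown. In Bbc3 and Irs2 the element lies on the opposite strand, so the capitals show its reverse complement. The expression values of the same genes are given further on. A match describes the letters in the window and is not evidence of binding.
Mxi1, chr19:53329452-53329482, plus strand: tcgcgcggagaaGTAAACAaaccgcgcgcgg
Hbp1, chr12:31950376-31950406, minus strand: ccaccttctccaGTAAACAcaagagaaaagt
Bcl2l11, chr2:128125799-128125829, plus strand: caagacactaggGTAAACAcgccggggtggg
Txnip, chr3:96557824-96557854, plus strand: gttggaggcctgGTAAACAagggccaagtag
Selenop, chr15:3270941-3270971, plus strand: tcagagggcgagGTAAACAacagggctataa
Bbc3, chr7:16310082-16310112, plus strand: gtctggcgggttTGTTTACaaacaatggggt
Gabarapl1, chr6:129533085-129533115, plus strand: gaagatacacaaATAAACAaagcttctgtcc
Irs2, chr8:11008948-11008979, minus strand: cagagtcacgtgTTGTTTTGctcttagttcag

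The 8 genes were chosen with their changes across the 4 groups already known. Their levels, fold changes and counts of calls are therefore a description, given with errors and without p-values. Each value below is TMM-scaled CPM in replicates 1, 2 and 3, and log2 fold changes with their SE come from the edgeR fit over all 12 libraries.

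Of the factors, Foxo3 and Foxo4 were highest in the starved libraries, and Foxo1 varied little. Foxo1 (chromosome 3, 52268336 to 52353221, plus strand, GRCm38.p6 as in all positions that follow), the family member best known in β-cells, was measured at 20.3, 20.04 and 21.2 CPM in control and at 22.5, 26.6 and 28.4 CPM in starved libraries. It stood at 22.9, 21.7 and 24.4 CPM after re-addition and at 22.6, 22.0 and 19.1 CPM with Rap. The starved libraries lay above the control libraries by a narrow margin and overlapped with the re-added ones, which also lay just above control (log2 fold change 0.33, SE 0.10, against control, and -0.17, SE 0.10, on re-addition). With starved replicate 1 as the only starved library, the one with marker levels like those of control, the first value was 0.15. Without starved replicate 3 the first was 0.21 and the second -0.06.

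Foxo3 (chromosome 10, 42181841 to 42276755, minus strand), a factor tied to autophagy and atrophy programmes in muscle, was at 33.7, 32.8 and 45.9 CPM in control and at 63.5, 69.7 and 67.4 CPM in starved libraries. The re-added libraries, at 33.0, 35.3 and 40.1 CPM, fell back into the control range, and the Rap libraries lay between, at 54.0, 56.8 and 49.2 CPM. No Rap value overlapped with a starved or a re-added one. The log2 fold changes were 0.83 (SE 0.12) for starved against control, -0.89 (SE 0.12) for re-added against starved and 0.56 (SE 0.12) for Rap against re-added.

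Foxo4 (chromosome X, 101254528 to 101260873, plus strand), a smaller member of the family under the same AKT control, was at 16.3, 20.4 and 18.8 CPM in control and at 28.2, 28.3 and 27.8 CPM in starved libraries. Re-added libraries had 16.1, 13.3 and 13.9 CPM, each below all control libraries, and Rap libraries 20.9, 22.4 and 19.3 CPM. The Rap group thus overlapped with control and not with the re-added group. Its log2 fold changes were 0.60, -0.96 and 0.53 in the order of comparisons given for Foxo3, each with an SE of 0.10 or 0.11, and -0.35 (SE 0.11) for re-added against control.

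Levels of different genes can be compared only per length, on the TPM values that the authors deposited. Foxo3 and Foxo4 were close to each other in control (13.3 ± 3.36 and 14.1 ± 1.2 TPM, SD, n = 3) and in starved cells (25.6 ± 0.67 and 23.4 ± 1.76 TPM), and Foxo1 was lower in both (6.32 ± 0.63 and 8.61 ± 0.67 TPM). The remaining member of the family, Foxo6, which lacks 1 of the usual AKT sites and was in a separate list of regulators, was the most abundant per length, at 41.6 ± 8.78 TPM in control and 30.5 ± 9.18 TPM in starved cells. Of the summed TPM of all 4 FoxO genes, Foxo6 made up 55.0% ± 2.31 in control, 34.2% ± 6.53 in starved, 56.9% ± 3.39 in re-added and 45.7% ± 4.12 in Rap libraries. Its own fall in starved cells did not pass the edgeR test (log2 fold change -0.56, SE 0.21, adjusted p = 0.0517), nor did its rise on re-addition (0.54, SE 0.21, adjusted p = 0.0593).

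**Figure D1:**
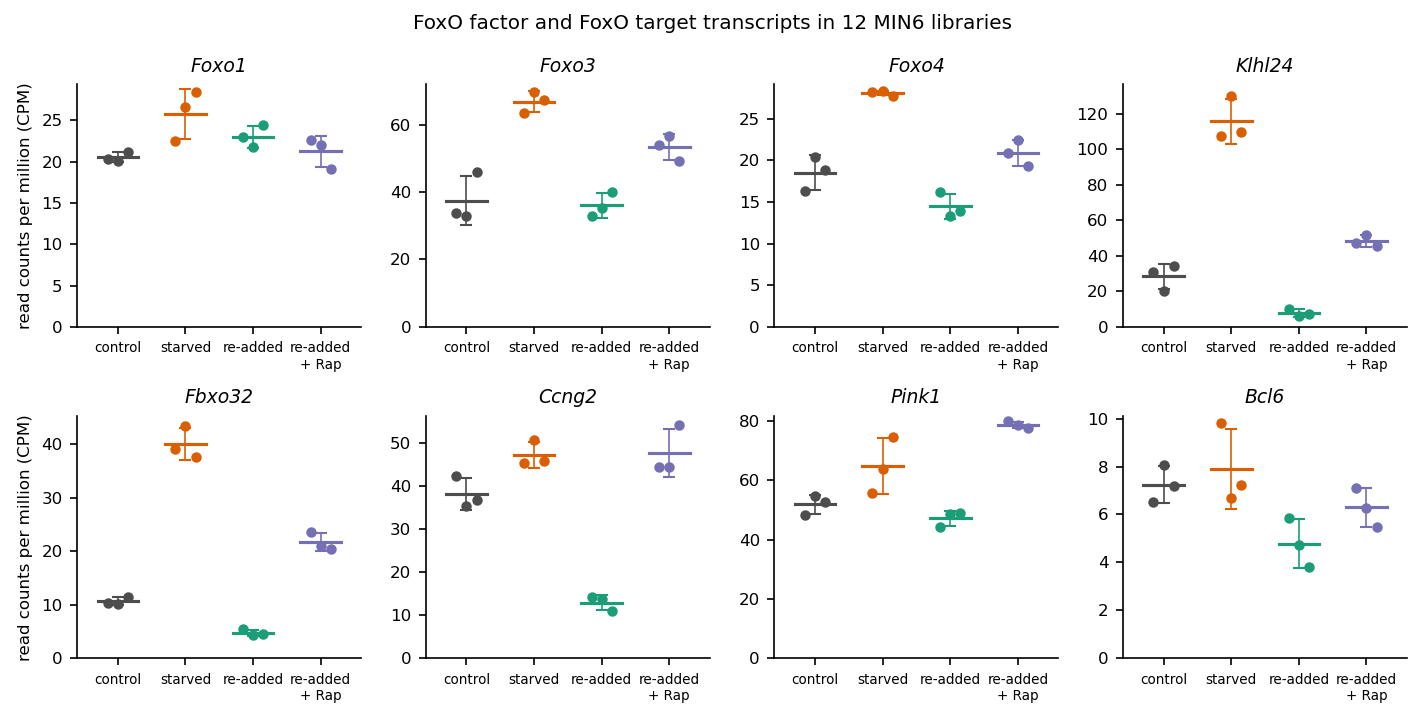
CPM of each of the 8 genes (vertical axes, from 0) in the 12 libraries, grouped by treatment on the horizontal axes; points are libraries, horizontal lines group means and bars the SD of 3 libraries. Klhl24 and Fbxo32 have their highest values in starved and their lowest in re-added libraries, with the Rap libraries in between, while Ccng2 in the Rap group lies at its starved level and Pink1 above its starved mean.

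The target genes with the widest range were Klhl24 and Fbxo32, both parts of ubiquitin ligases. Klhl24 (chromosome 16, 20097554 to 20127744, plus strand) encodes a substrate adaptor of cullin-3 ligases. It was at 31.1, 20.4 and 34.0 CPM in control, at 107, 130.2 and 109.9 CPM in starved, at 10.1, 6.05 and 7.16 CPM in re-added and at 47.4, 51.9 and 45.6 CPM in Rap libraries. None of the 4 groups overlapped with another. The starved mean was 4.06 times the control mean and 14.9 times the re-added mean, and the Rap mean was 6.23 times the re-added mean and 41.8% of the starved mean. The log2 fold changes were 2.02 (SE 0.19), -3.90 (SE 0.21) and 2.64 (SE 0.21), and -1.88 (SE 0.20) for re-added against control.

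Fbxo32 (chromosome 15, 58175879 to 58214892, minus strand) encodes atrogin-1, the F-box protein that FoxO factors induce in wasting muscle. Control libraries had 10.3, 10.2 and 11.5 CPM, starved libraries 39.0, 43.3 and 37.7 CPM, re-added libraries 5.39, 4.28 and 4.56 CPM, and Rap libraries 23.6, 21.1 and 20.4 CPM. The order of groups was that of Klhl24, again with no overlap between any of the 4. The starved mean was 3.75 times the control mean and 8.43 times the re-added mean, and the Rap mean was 54.2% of the starved mean. Fitted log2 fold changes were 1.91 (SE 0.11), -3.07 (SE 0.11) and 2.19 (SE 0.11), and -1.17 (SE 0.11) for re-added against control.

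Ccng2 and Pink1 had a smaller excess in starved cells, and their Rap means were at least as high as their starved means. Ccng2 (chromosome 5, 93267257 to 93276231, plus strand) encodes cyclin G2, an atypical cyclin associated with cell cycle arrest. It was at 42.3, 35.4 and 36.9 CPM in control, at 45.3, 50.8 and 45.8 CPM in starved and at 44.4, 44.5 and 54.1 CPM in Rap libraries, against only 14.1, 13.7 and 10.9 CPM in re-added libraries. The re-added group stood apart from the other groups, and the Rap mean was 100.8% of the starved mean. Rap replicates 1 and 2 lay just below every starved library, and Rap replicate 3 above them. Starved against control gave a log2 fold change of 0.31 (SE 0.12), which was 0.16 with upper-quartile scaling, whereas re-addition gave -1.87 (SE 0.12) and Rap against re-added 1.88 (SE 0.12).

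Pink1 (chromosome 4, 138313409 to 138326307, minus strand) encodes a mitochondrial kinase that marks damaged mitochondria for removal. Its values were 48.2, 54.7 and 52.7 CPM in control, 55.8, 63.6 and 74.7 CPM in starved, 44.2, 48.5 and 48.8 CPM in re-added and 79.8, 78.4 and 77.6 CPM in Rap libraries. All 3 Rap libraries exceeded every starved library, and the Rap mean was 121% of the starved mean and 1.67 times the re-added mean. The log2 fold change of Rap against re-added was 0.74 (SE 0.10), of re-added against starved -0.46 (SE 0.10) and of starved against control 0.32 (SE 0.10). The last value was 0.13 with starved replicate 1 as the only starved library and 0.16 without starved replicate 3.

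Bcl6 (chromosome 16, 23965052 to 23988852, minus strand) encodes a zinc finger repressor. It was at 6.52, 8.05 and 7.17 CPM in control, at 9.80, 6.68 and 7.22 CPM in starved, at 5.83, 4.71 and 3.79 CPM in re-added and at 7.09, 6.28 and 5.49 CPM in Rap libraries. Starved and control libraries overlapped, and so did Rap and re-added libraries, while all re-added libraries lay below all starved and all control libraries. The log2 fold changes were 0.13 (SE 0.20), -0.73 (SE 0.20) and 0.40 (SE 0.20). The first of these was -0.12 without starved replicate 1 and 0.46 with that replicate alone, and it was -0.003 with upper-quartile scaling of all libraries. The value of Rap against re-added was 0.21 on log2(TPM + 1) values.

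**Figure D2:**
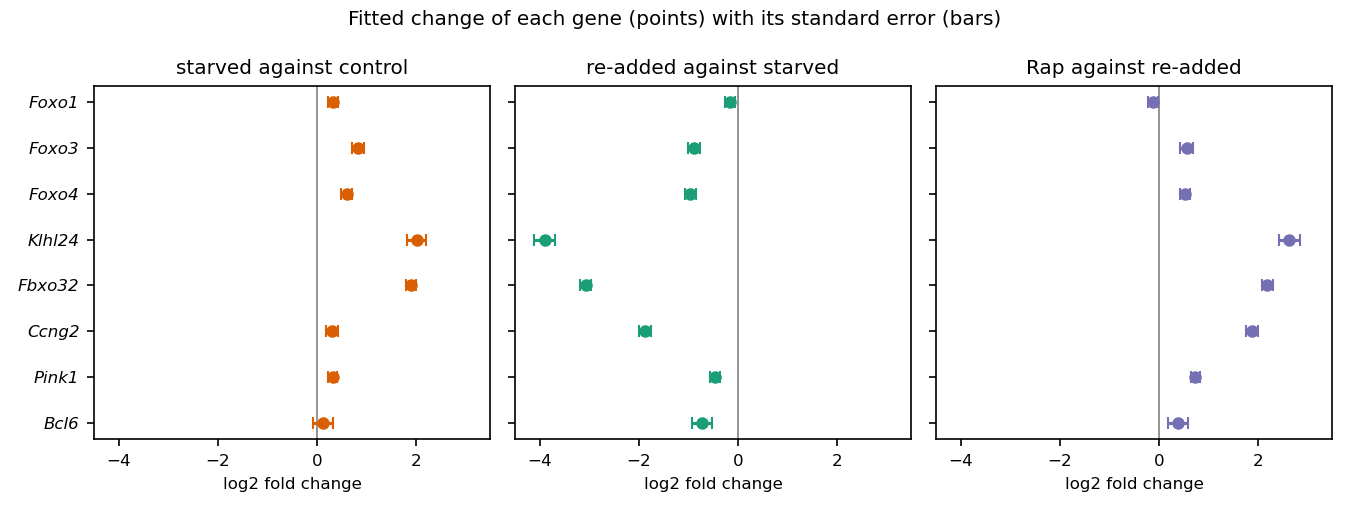
Fitted log2 fold changes (horizontal axes) of the 8 genes in 3 comparisons, with points for the estimates and bars for 1 SE to either side. All 8 points lie above 0 for starved against control, although Bcl6 is at -0.12 without starved replicate 1 and at -0.003 with upper-quartile scaling, and below 0 for re-added against starved, and 7 of the 8, all but Foxo1 at -0.12, lie above 0 for Rap against re-added.

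At an adjusted p under 0.05 in the edgeR test, 6 of the 8 genes, all but Ccng2 and Bcl6, were called higher in starved than in control cells. Of all 16844 tested genes 38.9% were called, 24.3% as higher and 14.6% as lower than control. Starved and control libraries did not overlap for 7 of the 8, all higher, beside 50.1% of all genes, or 27.5% higher and 22.6% lower. On re-addition 7 were called lower, beside 37.3% of all genes called, 18.8% lower and 18.4% higher, and 7 did not overlap, all lower, beside 50.6%, or 24.9% lower and 25.7% higher. With Rap 6 were called higher than in the re-added group, beside 7.98% of all genes called, 4.55% higher and 3.43% lower. The same 6 did not overlap, beside 38.9%, or 21.7% higher and 17.2% lower. Between re-added and control cells 5 were called lower, beside 49.3% of all genes called, 24.5% lower and 24.8% higher. There 6 did not overlap, 5 lower and Foxo1 higher, beside 59.5%, or 29.7% lower and 29.8% higher. Since these contrasts were known when the genes were chosen, nothing is read from the counts. The median log2 fold change of the 8 genes was 0.47, -0.92, 0.65 and -0.48 in these comparisons, and that of all tested genes 0.01, -0.06, 0.00 and 0.02. The comparisons share groups, so that a high starved value enters both comparisons with the starved group, and a low re-added value all that involve the re-added group.

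The genes also differed in how far the re-added group lay below control. Re-added means were 27.2% of control for Klhl24, 33.9% for Ccng2, 44.5% for Fbxo32, 65.9% for Bcl6 and 78.2% for Foxo4. They were 91.0% for Pink1, 96.3% for Foxo3 and 112% for Foxo1. Rap means were 203% of control for Fbxo32, 170% for Klhl24, 152% for Pink1, 142% for Foxo3 and 125% for Ccng2. They were 113% for Foxo4, 103% for Foxo1 and 86.8% for Bcl6, and for these genes Rap and control libraries overlapped. Rap against control was not among the comparisons fitted.

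RNA of other cell types was set beside these values, since the marker sum differed both between groups and within them. Within the starved group the sum was highest in replicate 1 and lowest in replicate 2, and within the re-added group it was highest in replicate 1. Of the 8 genes only Bcl6 had this order of libraries in both groups, beside 14.6% of all tested genes. Fbxo32 was highest in starved replicate 2, where the sum was 65.2 CPM. Within the re-added group, however, Fbxo32 (5.39, 4.28 and 4.56 CPM) and Klhl24 (10.1, 6.05 and 7.16 CPM) were highest in replicate 1, as the sum was. Whether other-cell RNA has a part in this was not tested. With starved replicate 1 as the only starved library the change of Fbxo32 against control was 1.89. In the libraries of low marker level its changes on re-addition and with Rap were -3.23 and 2.27. For Klhl24 the same values were 1.92, -4.24 and 2.85. These fits take the spread of the lone starved library from the remaining groups. For Bcl6, the value of re-added against control was -0.60 (SE 0.20) and -0.13 with the marker sum as a covariate. Marker sums of re-added and control libraries did not overlap, so the covariate fit cannot separate marker level from group. The part of other-cell RNA in this difference of Bcl6 was not tested further.

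**Figure D3:**
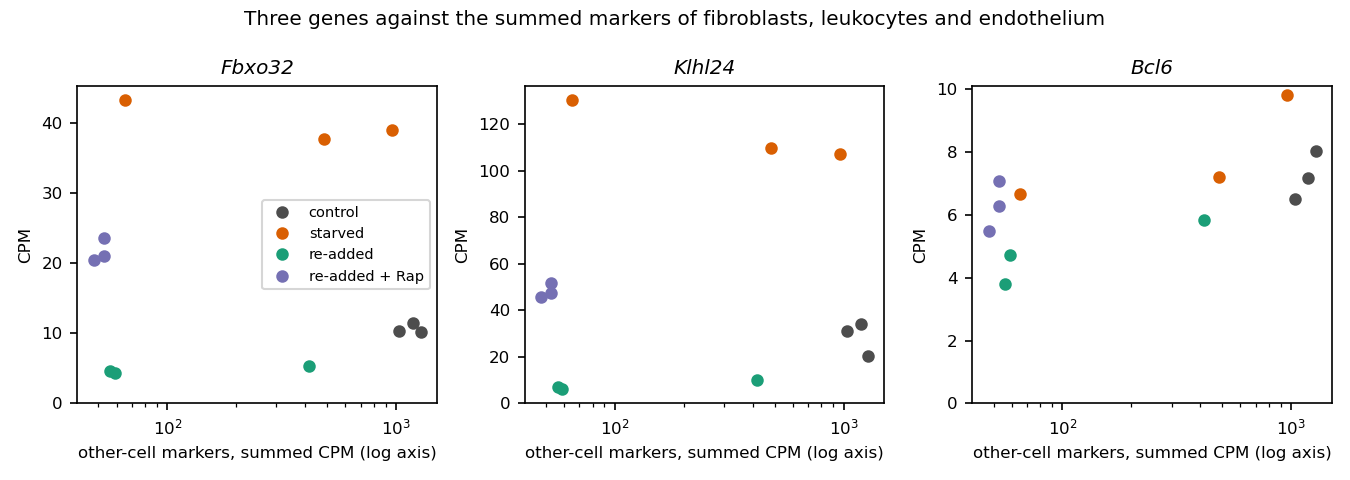
CPM of Fbxo32, Klhl24 and Bcl6 (vertical axes, from 0) against the summed CPM of 20 markers of fibroblasts, leukocytes and endothelium (horizontal axes, log scale), 1 point per library. The 3 starved libraries spread from 65.2 to 960.5 CPM of markers while Fbxo32 stays between 37.7 and 43.3 CPM and Klhl24 between 107 and 130.2 CPM, and Bcl6 is highest in the starved library with the highest marker sum. Among the re-added libraries, Fbxo32, Klhl24 and Bcl6 are highest in replicate 1, which has the highest marker sum of that group.

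Beyond the 8 genes, the wider list of FoxO targets was examined, of which 44 of 45 had a row and 40 passed the filter (Trim63, Pck1, G6pc and Igfbp1 did not). Part of it had been seen in earlier results of these data, so its counts and p-values are not an independent test. In starved against control cells 17 of the 40 rose and 7 fell (edgeR, adjusted p under 0.05), beside 24.3% and 14.6% of all genes. Its median log2 fold change was 0.03. On re-addition 22 fell and 1 rose, beside 18.8% and 18.4% of all genes, with a median of -0.98. With Rap 13 were higher and 1 was lower than in the re-added group, beside 4.55% and 3.43%, with a median of 0.22. Upper-quartile scaling, which lowered the median change of all genes from 0.01 to -0.13 and the share of higher calls from 62.5% to 44.6%, gave 14 risen and 9 fallen in starved cells. Without starved replicate 1, 13 of the list fell there instead of 7, and 3452 of all genes instead of 2458. The counts differed by role, with no test of that difference.

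Of 6 autophagy genes tested, 5 rose in starved cells, 5 fell on re-addition and 4 were higher with Rap than in the re-added group. The shares of all genes were 24.3%, 18.8% and 4.55%. Becn1 passed in none of these comparisons, and the starved call of Ulk2 was lost in 11 of 21 alternatives; both are named after their values were seen. Gabarapl1, whose product is conjugated to autophagosome membranes, went from 125 ± 11.6 CPM in control to 320.2 ± 19.5 CPM in starved, 64.6 ± 2.46 CPM in re-added and 141 ± 5.48 CPM in Rap libraries (SD, n = 3; adjusted p = 4.7e-07, 1.51e-08 and 1.1e-05 in the 3 comparisons by edgeR). Map1lc3b, its relative, fell from 244 ± 23.7 to 76.9 ± 2.73 CPM on re-addition and stood at 159 ± 8.04 CPM with Rap. Ulk1, the kinase that starts autophagy, fell from 62.6 ± 3.94 to 19.6 ± 2.69 CPM and stood at 42.8 ± 1.36 CPM with Rap. Atg14, a subunit of the autophagy lipid kinase, was at 13.9 ± 1.01 CPM in re-added and at 25.3 ± 1.70 CPM in Rap libraries (log2 fold change 0.87, SE 0.09, adjusted p = 0.000189 by edgeR).

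Among 9 cell cycle genes, 4 rose and 2 fell in starved cells, beside 24.3% and 14.6% of all genes. On re-addition 5 fell and 1 rose, beside 18.8% and 18.4%, and 4 were higher with Rap, beside 4.55%. The Rap call of Rbl2, named after its values were seen, was lost in 10 of 21 alternatives. Hbp1, a repressor of proliferation genes, was at 55.9, 52.4 and 54.8 CPM in control, at 88.9, 110.4 and 91.3 CPM in starved, at 33.1, 31.4 and 29.6 CPM in re-added and at 96.7, 95.8 and 96.3 CPM in Rap libraries. Its Rap values lay within its starved range and above all re-added ones (log2 fold change 1.62, SE 0.09, adjusted p = 2.15e-06 by edgeR). Mxi1, which opposes Myc, fell from 46.3 ± 4.41 to 17.2 ± 0.60 CPM on re-addition and stood at 32.5 ± 1.14 CPM with Rap. The inhibitor gene Cdkn1a rose from 169 ± 14.5 to 330 ± 28.0 CPM in starved cells, and Cited2 was lower in re-added (68.8 ± 2.89 CPM) than in control cells (119 ± 8.54 CPM). The 1 list member that rose on re-addition was Ccnd2, a cyclin gene that FoxO factors are known to repress, named here after its values were seen, from 242 ± 16.8 to 396 ± 8.86 CPM.

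Of 5 cell death genes, 2 rose in starved cells, fell on re-addition and were higher with Rap. The shares of all genes, each comparison taken singly, were 24.3%, 18.8% and 4.55%. Bcl2l11, which encodes the BH3 protein BIM, went from 35.7 ± 0.31 CPM in starved to 16.5 ± 0.59 CPM in re-added and 30.8 ± 1.85 CPM in Rap libraries (adjusted p = 7.09e-07 and 3.04e-05 by edgeR), and Bbc3, which encodes PUMA, from 56.4 ± 7.50 to 17.9 ± 1.196 and 36.4 ± 3.31 CPM. Bnip3, a mitophagy receptor gene that is also a target of HIF1, moved the other way in starved cells, from 433 ± 108 to 83.8 ± 19.4 CPM (adjusted p = 4.62e-06 by edgeR for a log2 fold change of -2.37, SE 0.19), and did not pass the test in the next 2 comparisons.

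Genes of metabolism and insulin signalling rose in 6 of 8 cases in starved cells and fell in 7 of 8 on re-addition. With Rap 3 of 8 were higher and 1 was lower. Of all genes 24.3% rose in starved cells and 18.8% fell on re-addition, and with Rap 4.55% were higher and 3.43% lower. The calls of Rictor, an mTORC2 subunit gene, were lost in 6 of 21 alternatives in starved cells and in 14 on re-addition. The call of Pdk4 on re-addition was lost in 5 of 18, and that of Insr with Rap in 10 of 21. These genes are named after their values were seen. Txnip, an arrestin-like inhibitor of glucose uptake, was at 73.8 ± 5.48 CPM in control, 334 ± 24.6 CPM in starved, 77.3 ± 5.07 CPM in re-added and 118 ± 4.199 CPM in Rap libraries. Ppargc1a, a coactivator of mitochondrial genes, rose from 7.79 ± 1.46 to 33.9 ± 4.76 CPM and stood at 11.96 ± 1.03 CPM after re-addition. The 1 list member lower with Rap was Eif4ebp1, the gene of the translation inhibitor 4E-BP1, at 69.98 ± 4.07 CPM in starved, 29.3 ± 0.07 CPM in re-added and 18.6 ± 0.81 CPM in Rap libraries (log2 fold change -0.66, SE 0.10, adjusted p = 0.00167 by edgeR). Irs2, an insulin receptor substrate gene named here for its promoter match, had a log2 fold change of 1.52 in starved cells and -0.06 on re-addition. Pnpla2, a lipase gene, was lower in re-added (29.4 ± 3.04 CPM) than in control cells (53.3 ± 6.53 CPM).

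Of 6 antioxidant genes tested none rose and 3 fell in starved cells, beside 24.3% and 14.6% of all genes. On re-addition 1 fell, beside 18.8%, and none passed with Rap. The gene that fell on re-addition was Cat, named after its values were seen, and this call was lost in 10 of 21 alternatives. Selenop, a selenium carrier gene, was at 160.2 ± 15.7 CPM in control and between 67.6 and 75.6 CPM on average in the other groups. The 6 remaining genes, listed under none of these roles, gave 1 call lower in starved cells, 2 lower on re-addition and none with Rap. Those 2 were Tsc22d3 and Pik3ip1, named after their values were seen, with calls lost in 12 and 3 of 21 alternatives. Among the 6 remaining genes and elsewhere in the list, 9 of 40 genes had the library order of the other-cell markers, beside 14.6% of all genes. Cat and Pik3ip1 were among them. Between re-added and control cells, 25 of the 40 fell and 3 rose, beside 24.5% and 24.8% of all genes. With the marker sum as a covariate 15 fell and 1 rose, where 1361 of all genes fell and 1387 rose. The marker sums of re-added and control libraries did not overlap, so that fit cannot separate marker level from group.

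**Figure D4:**
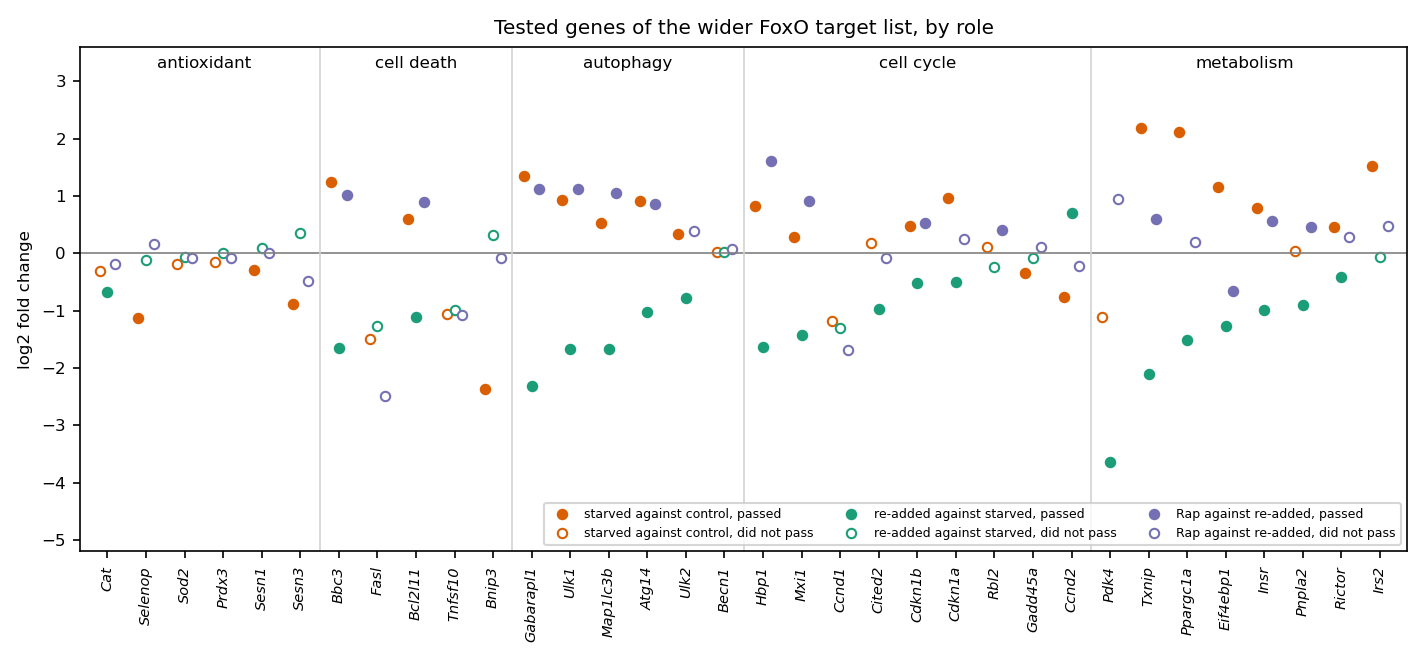
Log2 fold changes (vertical axis) of the tested genes of the wider FoxO target list that belong to a named role, ordered by role, in 3 comparisons; filled points passed the edgeR test at an adjusted p under 0.05 and open points did not. In the autophagy group the filled points of starved against control and of Rap against re-added lie above 0 and those of re-added against starved below 0, and in the antioxidant group no point of Rap against re-added is filled; Pdk4, singled out after its values were seen, was below 1 CPM in every group on average, so its fitted values depend on the prior count.

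A list of genes that act on FoxO proteins, also chosen with earlier results of these data known, was tested as well. All 29 in the list of AKT and PI3K subunits, 14-3-3 proteins, deacetylases, acetyltransferases and other regulators passed the filter. Starved against control, 13 rose and 5 fell, but 9 rose and 12 fell with upper-quartile scaling. With only the libraries of the comparison 7 rose, and with the marker covariate 8. Of all genes, 4101 rose in the main fit, and 2448 and 2999 in these last 2 settings. Re-added against starved, 5 of the regulators rose and 6 fell, and with Rap 2 were higher and 1 was lower. Between re-added and control cells 9 were higher and 3 lower, among them Sfn (-1.86, SE 0.28), a 14-3-3 gene, and Mdm2 (0.43, SE 0.09), a ubiquitin ligase gene; with the marker sum as a covariate the counts were 0 and 1. In the main fit, 24.3% of all genes rose and 14.6% fell in starved cells, and 18.4% rose and 18.8% fell on re-addition. With Rap 4.55% were higher and 3.43% lower, and between re-added and control cells 24.8% were higher and 24.5% lower. Upper-quartile scaling gave 2961 risen and 3679 fallen genes in starved cells, and the covariate 1387 higher and 1361 lower for re-added against control. That covariate fit cannot separate marker level from group, since the marker sums of re-added and control libraries did not overlap. Sirt1, a deacetylase gene, rose in starved cells (log2 fold change 0.76, SE 0.10, adjusted p = 0.000129 by edgeR), as did Pik3ca, the PI3K catalytic subunit gene (0.55, SE 0.09, adjusted p = 0.000541), Sirt2 (0.45, SE 0.07) and Ep300 (0.87, SE 0.15). On re-addition Pik3ca (-0.71, SE 0.09) and Akt2 (-0.57, SE 0.07) fell and the 14-3-3 genes Ywhae (0.36, SE 0.08) and Ywhag (0.31, SE 0.07) rose. With Rap the calls were Sirt1 (0.42, SE 0.10, adjusted p = 0.0205), Pik3ca (0.32, SE 0.09, adjusted p = 0.0455) and Usp7, a deubiquitinase gene (-0.28, SE 0.07, adjusted p = 0.038). Each of these was lost without single libraries, including any 1 re-added library for the first 2.

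For each of the 8 genes the nearest profiles were taken among 11037 tested genes of at least 5 CPM, as the root-mean-square distance between log2(CPM + 0.5) values centred on their mean over the 12 libraries. Fbxo32 and Klhl24 had the same nearest genes, Crebrf, a regulator of CREB3 factors, at distances of 0.18 and 0.41, and Ypel4, at 0.22 and 0.45. Crebrf was at 27.2 ± 3.27 CPM in control, 77.6 ± 12.5 CPM in starved, 10.8 ± 0.92 CPM in re-added and 51.9 ± 1.49 CPM in Rap libraries. The distance between Fbxo32 and Klhl24 was 0.37, and Klhl24 lay further from its nearest gene than any other of the 8 did, the 8 themselves left out. Foxo3 was nearest to Nbr1, an autophagy receptor gene (0.08; 164 ± 24.3, 273 ± 20.8, 147 ± 3.98 and 233 ± 11.5 CPM in the 4 groups), and to Pcnt (0.10), and Foxo4 to Zfp740 (0.09) and Haus4 (0.10). Ccng2 was nearest to Ypel1 (0.24) and Mxd4 (0.28), Pink1 to Zc3h6 (0.10) and Neurl1a (0.11), Bcl6 to Lats2 (0.15) and Lynx1 (0.16), and Foxo1, whose range was narrow, to Rnf40 and Ctnnb1 (0.07 each). These distances describe 12 libraries that fall into 4 groups, so genes with the same order of groups lie close.

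The strand setting of the counting is not given in the sources used here, so reads of genes that share exon bases cannot be told apart with certainty. Of the 8 genes, Foxo1, Fbxo32 and Bcl6 share exon bases with a gene on the opposite strand, and each of these other genes had at most 9 reads in any library. Foxo3, Foxo4, Klhl24 and Ccng2 share none with another gene of the files, and the small RNA genes inside Pink1 were at 0 in all libraries.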

How the data were processed

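RNA sequencing counts of 12 MIN6 libraries were used. The authors deposited raw read counts per Ensembl gene and a table of TPM values with gene symbols. The submitters' processing notes name GRCm38.p6 as the build and, without saying what each did, Subread 2.0.1 and limma 3.46.0. The aligner, the strand setting and the annotation were not given in the sources used here. TPM columns were assigned through the headers of the count files and equal the counts per exon length rescaled within 5.0e-05. Counts were fitted in R 4.3.3 with edgeR 4.0.16 (filterByExpr with minimum count 10 and total 15, TMM, 1 quasi-likelihood fit of 4 group means over all 12 libraries, Benjamini-Hochberg adjustment over 16844 genes, threshold 0.05). DESeq2 1.42.0 and limma 3.58.1 served as alternatives, and the routines were tested on simulated counts. Totals ran from 18555958 to 25631056 reads, and the spread between libraries sets the precision of most values. The 8 genes, the lists, the tests and the alternatives were chosen with earlier results of these data known. Named genes are the 8, in each comparison the 8 target-list and 4 regulator-list genes with the smallest adjusted p among those called, and 2 nearest profiles per gene; exceptions are marked. Promoter windows come from the RefSeq table of GRCm38.p6. Depp1 was not found by symbol.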

Additional observations from a re-analysis of the deposited data

How the results depend on the processing

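Over 20 or 21 alternatives none of the called changes of the 8 genes changed sign, and 654 of their alternative values moved by less than the spread between replicates and 10 by more. The call of Foxo1 in starved cells was lost in 8 alternatives and that of Pink1 in 6. On re-addition that of Bcl6 was lost in 3 and that of Pink1 in 1. With Rap that of Foxo3 was lost in 7 and that of Foxo4 in 3, and for re-added against control that of Foxo4 in 7 and that of Bcl6 in 8; the remaining calls of the 8 genes were kept in every alternative. Counts that moved by over 1.5 times follow, and for them the cause was not tested. With matched libraries (by marker level) all genes gave 1655 higher and 1585 lower for starved against control, and 1656 and 1903 for re-added against starved; no matched fit was possible for re-added against control. With only the libraries of the comparison, 2448 genes were higher in starved cells, and with Rap 1829 were higher and 2130 lower. Lower calls with Rap were 1162 by DESeq2 and 1443 and 1429 by limma with pseudocounts of 1 and 0.1. The share of higher among all calls was 62.5% in starved cells and 73.1% and 74% by limma, 57% with Rap and 28.6% and 28.2% by limma, 45.8% with no filter and 46.2% with own libraries, and 50.2% for re-added against control and 63.5% and 64.2% by limma. With the marker sum as covariate, re-added against control gave 1387 higher and 1361 lower genes, and 1 and 15 on the target list. Since the marker sums of re-added and control libraries did not overlap, that fit cannot separate marker level from group. On the target list, 2 genes rose on re-addition with upper-quartile factors, DESeq2, no filter, own libraries, the covariate and matched libraries, and with Rap 3 were lower with upper-quartile factors, DESeq2 and own libraries and 2 with no filter and the covariate. Regulators higher in starved cells were 7 with own libraries, 8 with the covariate and 5 with matched libraries, and lower ones 12 with upper-quartile factors, 8 by DESeq2 and 3 by limma (both) and with own libraries. On re-addition 8 regulators rose with upper-quartile factors and by DESeq2 and 2 with matched libraries. With Rap, higher regulators were 1 with no filter and the covariate and 0 by limma and with matched libraries, and lower ones 3 with upper-quartile factors, 4 by DESeq2, 5 by limma, 6 with own libraries and 2 with the covariate. For re-added against control, higher regulators were 5 with own libraries and 0 with the covariate, and lower ones 9 with upper-quartile factors, 6 by DESeq2 and 1 by limma and with the covariate.

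Leaving out 1 library at a time gave 6 to 13 target genes lower in starved cells (13 without starved replicate 1). Without that replicate 3452 of all genes were lower there, and 2458 in the main fit. On re-addition, leaving out 1 library gave 1 to 2 target genes higher (2 without control replicate 2 or 3). It gave 3 to 6 regulators higher on re-addition (3 without re-added replicate 2). With Rap it gave 390 to 1168 genes higher and 245 to 890 lower, the most without control replicate 2 and the fewest without re-added replicate 3, 1 to 3 target genes lower, and 0 to 3 regulators higher and 0 to 4 lower. For re-added against control it gave 2154 to 4685 genes lower (2154 without re-added replicate 3, 2359 without re-added replicate 2) and 1 to 4 regulators lower.

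Replicate numbers did not pair the libraries across all groups. Correlations of same-numbered deviations ran from -0.33 to 0.79, with 2 of 18 above 0.1, and 3 of 12 libraries correlated best with their own number. Those 2 were starved with re-added libraries of replicate 1 (0.79) and replicate 2 (0.63), while replicate 3 of the same groups gave -0.33. Shared handling of starved and re-added libraries was not tested. With the replicate block the target list gave 17 higher and 9 lower in starved cells, 1 and 20 on re-addition, 12 and 1 with Rap and 3 and 26 for re-added against control, and with Rap 1 regulator was higher and 0 were lower. Groups of 3 libraries and low counts, as for Bcl6, limit what can be told apart.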
